A study of Mus musculus with 4 samples.

Results

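Gene deserts were taken here as stretches of mouse chromosomes 1 to 19 in which every position lies outside all protein-coding RefSeq genes and more than 100 kb from the nearest end of one. All positions are in the build GRCm38 (mm10). A desert peak is a peak whose summit falls in such a stretch. The rule found 4174 desert peaks among the 86919 peaks of 3 lists: 298 of 4426 for Trim33, 2925 of 52446 for CTCF and 951 of 30047 for H3K27ac. The rule used gene positions alone, not any measured value. Just inside the boundary, the nearest Trim33 peak lay 100165 bp from a gene with a fold of 5.75, the nearest CTCF peak 100053 bp away with a fold of 7.04 and the nearest H3K27ac peak 100021 bp away with a fold of 5.17. Just outside it, the corresponding peaks lay 99484 bp, 99972 bp and 99859 bp from a gene, with folds of 6.03, 6.24 and 9.41.

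The peaks come from chromatin immunoprecipitation with sequencing of mouse embryoid bodies, balls of differentiating embryonic stem cells, at day 6. Each antibody gave 1 library, and sheared input DNA gave another, so the values lack replicates and none was tested. All libraries share the same cells: stem cells from blastocysts labelled Trim33FF: UbcCreERT2 (a conditional Trim33 allele with an inducible Cre recombinase driven by a ubiquitin C promoter) on the strain labelled Outbred - B6:129Sv, kept with 2i and LIF and then differentiated in serum. In the deposited summary the names of the Trim33 and input libraries carry one code and those of the CTCF and H3K27ac libraries another; what the code marks is not stated, and it cannot be told apart from the antibody where Trim33 is set beside the other lists. The labels name no treatment, and no library of cells without Trim33 was analysed here, so each peak rests on the specificity of its antibody. Embryoid bodies mix many cell types, and a bulk library cannot tell fewer cells of a type with a mark from less of the mark in each cell.

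CTCF is a zinc finger protein that binds a long DNA motif and, with cohesin, anchors chromatin loops and domain boundaries. H3K27ac is acetylation of histone H3 at lysine 27, found at active promoters and active enhancers. Trim33 is a nuclear protein of the TRIM family whose PHD finger and bromodomain read histone tails; in mouse embryonic stem cells it is known as a partner of Smad2 and Smad3 in Nodal signalling. Gene deserts hold few or no protein-coding genes, and many flank developmental genes and hold enhancers that act over long distances.

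The Trim33, CTCF and H3K27ac libraries held 13643929, 33090822 and 29995044 tags, with 0.72%, 26.46% and 13.02% of reads in peaks, in the authors' deposited summary. The lowest −log10 p was 5.06 in the Trim33 list and 7.03 in the other lists, so the Trim33 list was called at a looser threshold from the shallowest library. H3K27ac summits lay within 1 kb of an end of 3 of 4 pluripotency genes (Pou5f1, Nanog and Sox2), 4 of 5 endoderm genes, 1 of 5 primitive streak and mesoderm genes (Eomes) and 1 of 4 ectoderm genes (Sox1). None lay at the 4 markers of hepatocytes, skeletal muscle, rod photoreceptors and T cells. The defining mesoderm genes T, Mixl1, Hand1 and Mesp1 had none.

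Sequence could be shown only where a desert summit falls in the RefSeq promoter window of a gene that is not protein-coding (250 bases before to 50 after its start, build GRCm38.p6) or near a microRNA. Of 2017 such windows in deserts, 4 held a Trim33 desert summit, 22 a CTCF summit and 13 an H3K27ac summit. The motif AGGNGGC, the middle of the CTCF core motif, was searched on both strands. Of the Trim33 windows, the 3 with a match are printed 5′ to 3′ on the strand of the RNA, with bases counted from 1 at the 5′ end, and the window that is not printed has no match. Capitals mark AGGNGGC or its reverse complement GCCNCCT. Gm33388 is a long noncoding RNA (lncRNA) between Gli2, a Hedgehog effector, and Inhbb, an inhibin and activin subunit (chr1:119305493-119305792, plus strand, Trim33 summit at base 219, fold 6.50). Tunar is a lncRNA known in mouse stem cells for a role in pluripotency and neural differentiation (chr12:105336743-105337042, plus strand, summit at base 99, fold 3.40). D230030E09Rik is a lncRNA between Sp4 and Sp8, zinc finger transcription factors (chr12:118530144-118530443, minus strand, summit at base 210, fold 8.74).
Gm33388: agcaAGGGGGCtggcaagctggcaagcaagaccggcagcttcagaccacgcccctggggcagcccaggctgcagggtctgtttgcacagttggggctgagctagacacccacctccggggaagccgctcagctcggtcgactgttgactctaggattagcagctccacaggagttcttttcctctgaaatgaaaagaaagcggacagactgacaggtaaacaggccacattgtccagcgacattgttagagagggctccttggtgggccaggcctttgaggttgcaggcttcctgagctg
Tunar: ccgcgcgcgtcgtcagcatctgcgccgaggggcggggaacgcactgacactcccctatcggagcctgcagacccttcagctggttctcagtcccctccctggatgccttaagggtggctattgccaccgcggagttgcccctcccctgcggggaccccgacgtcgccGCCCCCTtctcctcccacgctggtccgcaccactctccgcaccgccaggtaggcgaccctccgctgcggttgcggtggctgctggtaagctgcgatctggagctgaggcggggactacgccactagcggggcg
D230030E09Rik: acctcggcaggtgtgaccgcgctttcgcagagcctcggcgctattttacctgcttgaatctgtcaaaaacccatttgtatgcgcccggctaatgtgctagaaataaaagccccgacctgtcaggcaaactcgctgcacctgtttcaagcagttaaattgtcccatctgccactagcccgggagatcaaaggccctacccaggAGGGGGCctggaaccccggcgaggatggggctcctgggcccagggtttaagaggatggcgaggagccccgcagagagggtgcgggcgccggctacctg

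The next windows are those of the 2 highest CTCF desert peaks that fall in a promoter window with a match, and of Gm26901, whose window holds H3K27ac. Gm13652 is a lncRNA between Mtx2 and Gm50595 (chr2:75137926-75138225, minus strand, CTCF summit at base 176, fold 30.1, match from base 201). The window of 4930545L08Rik, a lncRNA between Stac and Arpp21, had its CTCF summit at base 232 with a fold of 27.1 and its match from base 214 (chr9:111918680-111918979, minus strand). Gm26901 is a lncRNA between Pcmtd1 and Sntg1 (chr1:7398047-7398346, minus strand), and its H3K27ac summit lay at base 30 with a fold of 7.54. That H3K27ac peak overlapped a CTCF peak of fold 38.1 (chr1:7398107-7398709). The CTCF peak covers the marked match, though its summit lies outside the window.
Gm13652: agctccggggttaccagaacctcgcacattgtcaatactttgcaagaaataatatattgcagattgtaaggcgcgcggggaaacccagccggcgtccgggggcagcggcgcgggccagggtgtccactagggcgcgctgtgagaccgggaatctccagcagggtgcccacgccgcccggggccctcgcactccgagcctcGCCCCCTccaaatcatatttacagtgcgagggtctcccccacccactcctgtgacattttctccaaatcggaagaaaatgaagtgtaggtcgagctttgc
4930545L08Rik: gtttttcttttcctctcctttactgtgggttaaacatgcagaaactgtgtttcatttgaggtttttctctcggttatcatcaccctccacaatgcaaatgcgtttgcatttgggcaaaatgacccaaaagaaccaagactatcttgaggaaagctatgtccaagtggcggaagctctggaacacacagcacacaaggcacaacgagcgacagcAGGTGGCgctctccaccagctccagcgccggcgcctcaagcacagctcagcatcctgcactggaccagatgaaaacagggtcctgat
Gm26901: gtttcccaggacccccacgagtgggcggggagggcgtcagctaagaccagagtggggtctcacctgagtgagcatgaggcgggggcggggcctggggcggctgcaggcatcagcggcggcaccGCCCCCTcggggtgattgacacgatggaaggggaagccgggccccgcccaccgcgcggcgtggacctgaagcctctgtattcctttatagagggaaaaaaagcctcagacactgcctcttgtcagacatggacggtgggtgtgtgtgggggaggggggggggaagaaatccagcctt

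A match was present in 10 of the 22 windows with a CTCF desert summit (45.5%), in 6 of the 13 with an H3K27ac desert summit (46.2%), in 266 of all 2017 desert windows (13.2%) and in 1029 of the 1795 windows with any CTCF summit (57.3%). Over all 31396 promoter windows of chromosomes 1 to 19 the share was 29.4%. In the 10 windows the match lay a median of 10 bp from the CTCF summit, between 0 and 66 bp. In the 6 windows with an H3K27ac desert summit the match lay a median of 70.5 bp from that summit, between 21 and 151 bp. It was present in 3 of 4 windows with a Trim33 summit, 1 to 208 bp from it, though no CTCF peak overlapped the Trim33 peaks there. The match at Gm33388, 208 bp from the summit, lay outside the Trim33 peak (chr1:119305532-119305911). The shares were thus alike for CTCF and H3K27ac desert windows, which are few, while the match lay nearer the summit for CTCF. Windows can share a peak and its match, as did those of Gm13847 and Gm13848 for CTCF and those of Gm33041 for H3K27ac. The windows also differ in base composition. Their median GC content was 60.3% with a Trim33 desert summit, 52.3% with H3K27ac and 50.3% with CTCF, against 45% in all desert windows. It was 62% in the windows with any CTCF summit and 53% in all promoter windows. The part of GC content in the shares was not tested.

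One Trim33 desert peak lay on a microRNA (chr12:109724227-109724446, fold 6.72, with no CTCF or H3K27ac peak). It sits between Rtl1 and Dio3, in an imprinted domain with a large cluster of microRNAs. Its summit was the first base of mature miR-300-3p, inside the Mir300 hairpin (chr12:109724313-109724391, plus strand), and the Mir376a and Mir376b hairpins lay 515 and 824 bp away. Among 100 hairpins in deserts, 5 lay within 2 kb of a Trim33 desert summit, all of them near this single peak, 1 of a CTCF summit and 1 of an H3K27ac summit. The RefSeq sequences are printed with the seed, bases 2 to 8, in capitals. No 2 of the 4 mature sequences printed share a seed. The miR-376b-5p and miR-376c-5p sequences, from hairpins also within 2 kb of the summit, are not printed and have the same seed.
Mir300 hairpin: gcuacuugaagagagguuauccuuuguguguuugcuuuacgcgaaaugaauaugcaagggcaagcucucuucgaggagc
mmu-miR-300-5p: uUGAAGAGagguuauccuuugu
mmu-miR-300-3p: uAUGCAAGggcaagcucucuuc
mmu-miR-376a-3p: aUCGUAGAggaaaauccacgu
mmu-miR-376b-3p: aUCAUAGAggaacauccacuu

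Deserts made up 658 Mb, or 27.4% of the sequenced length of chromosomes 1 to 19, in 1413 intervals with a median length of 215 kb. They held 6.77% of the Trim33 list on these chromosomes (95% Wilson interval, 6.07 to 7.55%), 5.67% of the CTCF list (5.47 to 5.87%) and 3.23% of the H3K27ac list (3.03 to 3.44%). All intervals given here cover counting error only. Per Mb, deserts held 0.453 Trim33 peaks against 2.35 outside, 4.44 CTCF peaks against 27.9 and 1.44 H3K27ac peaks against 16.3. Thus Trim33 was 5.19 times, CTCF 6.27 times and H3K27ac 11.3 times less dense in deserts than outside them. The density of all lists went on falling inside deserts. Trim33 fell from 0.726 peaks per Mb at 100 to 200 kb from a gene to 0.0761 beyond 1000 kb, CTCF from 7.72 to 0.99 and H3K27ac from 2.95 to 0.228. Accordingly 145 of the 298 Trim33 desert peaks lay within 200 kb of a gene, and 5 lay beyond 1000 kb.

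**Figure D1:**
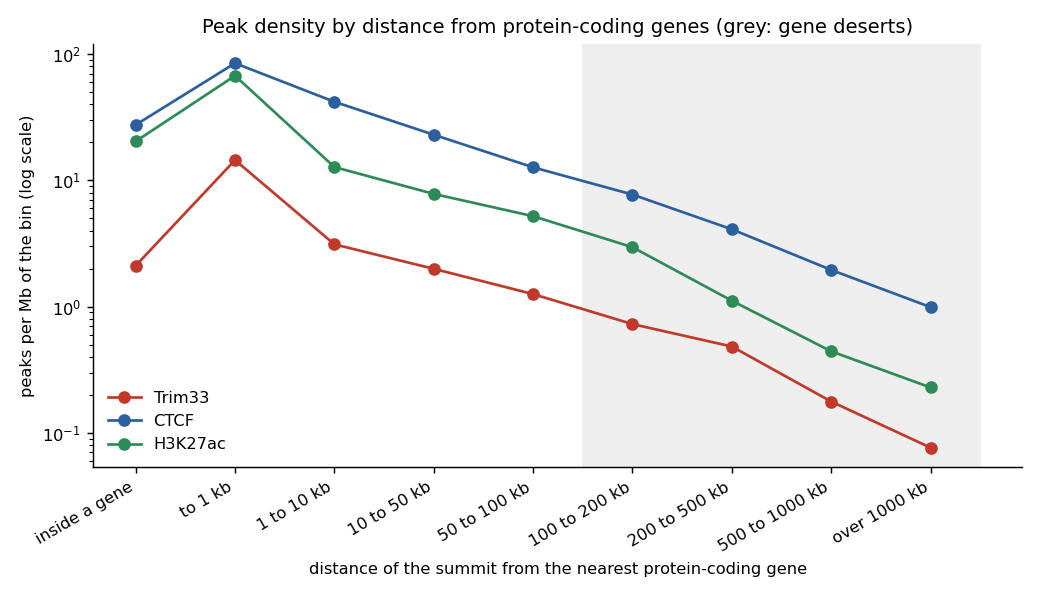
Peaks per Mb (log scale) of the Trim33, CTCF and H3K27ac lists, in bins of the distance from the summit to the nearest protein-coding gene. Points are 1 library each, grey marks gene deserts, and every list falls across the 4 desert bins, H3K27ac from 2.95 to 0.228 peaks per Mb.

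Peak height is the authors' fold enrichment at the summit and is compared only within a list. The median fold of Trim33 peaks was 6.03 in deserts (5.93 to 6.29, 95% interval of the median from order statistics) and 5.66 outside. For CTCF it was 9.93 (9.69 to 10.2) and 9.39, and for H3K27ac 6.25 (6.21 to 6.44) and 6.76. The interval of the desert median lay above the value outside for Trim33 and CTCF and below it for H3K27ac. The ranges of single peaks overlapped. Just short of deserts, at 50 to 100 kb from a gene, Trim33 peaks had a median fold of 6.03 and H3K27ac peaks one of 6.37. Both values lie inside the desert intervals. CTCF peaks at that distance had a median of 10.6, above their desert interval. The differences from all peaks outside were thus not particular to deserts. Quartiles in deserts were 5.27 and 7 for Trim33, 7.25 and 14.7 for CTCF and 5.35 and 7.80 for H3K27ac, against 4.93 and 6.67, 6.41 and 16.4, and 5.40 and 9.64 outside. Of the 10% of each list with the highest folds, deserts held 34 Trim33 peaks, which is 11.4% of the Trim33 desert peaks (8.28 to 15.5%). They held 183 CTCF peaks (6.26%) and 9 H3K27ac peaks (0.946%, 0.499 to 1.79%) of that upper end. The highest desert folds were 14.5, 51.7 and 17.0, against 20.4, 60.6 and 45.3 outside. Median widths in deserts and outside were 270 and 264 bp for Trim33, 334 and 425 bp for CTCF and 363 and 447 bp for H3K27ac. The 298 Trim33 peaks take only 105 distinct folds, so many ranks are tied.

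In deserts 67 of 298 Trim33 peaks shared at least 1 bp with a CTCF peak (22.5%, 18.1 to 27.6%), against 44.6% of all Trim33 peaks on these chromosomes. Also 67 of 298 shared it with an H3K27ac peak (22.5%), against 42.7% of all. Both desert shares were thus below those of the whole list. From the CTCF side, 65 of 2925 desert peaks met a Trim33 peak (2.22%, 1.75 to 2.82%), against 3.7% of all, and 44 met an H3K27ac peak (1.50%, 1.12 to 2.01%), against 8.25% of all. From the H3K27ac side, 65 of 951 desert peaks met a Trim33 peak (6.83%, 5.40 to 8.62%), close to the 6.33% of all. In contrast 44 of 951 met a CTCF peak (4.63%, 3.46 to 6.15%), against 14.7% of all. At 50 to 100 kb from a gene, just short of deserts, H3K27ac peaks met CTCF at 4.62% and Trim33 at 6.30%. CTCF peaks there met H3K27ac at 1.81% and Trim33 at 3.57%, and Trim33 peaks met CTCF at 37.4% and H3K27ac at 25.2%. The low overlap of CTCF and H3K27ac was thus not particular to deserts. Of the 6 shares, that of H3K27ac peaks with Trim33 was the only one not lower in deserts than in the whole list at 1 shared bp. This share moved under other overlap rules, as given below. Narrower desert CTCF and H3K27ac peaks leave fewer bases to share, and the part of width in these shares was not tested.

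**Figure D2:**
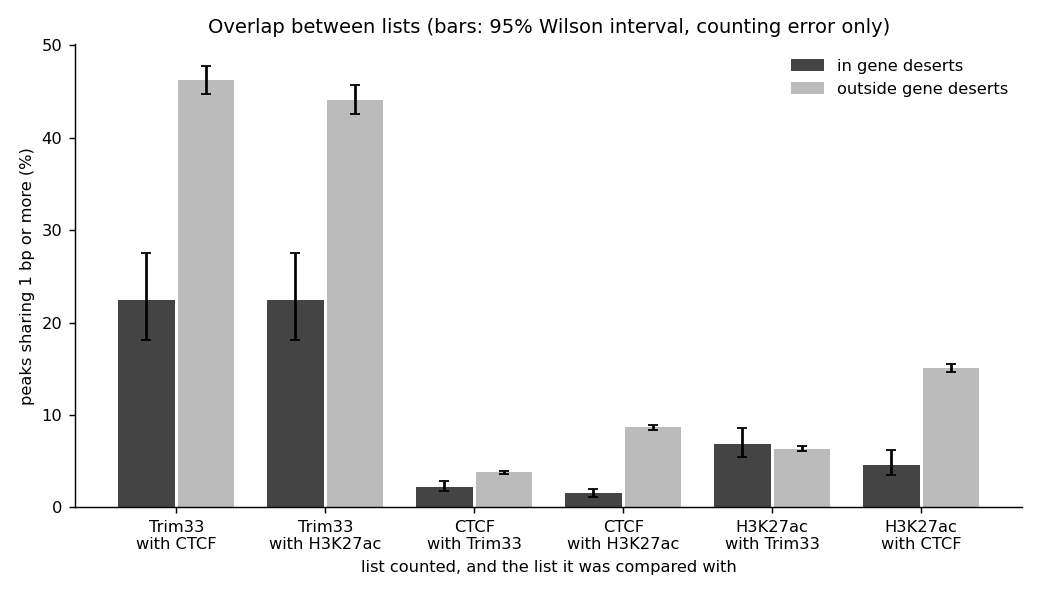
Percent of the peaks of one list that share at least 1 bp with a peak of another, in gene deserts (dark) and outside them (light), with 95% Wilson intervals. The desert bar is lower in 5 of the 6 pairs, and H3K27ac with Trim33 stands at 6.83% in deserts and 6.32% outside.

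Most Trim33 desert peaks overlapped neither CTCF nor H3K27ac: 173 of 298, or 58.1% (52.4 to 63.5%), against 25.3% of all Trim33 peaks. Of the others, 58 had CTCF alone (19.5%), 58 had H3K27ac alone (19.5%) and 9 had both (3.02%). The median fold was nearly the same in each class, at 6.03 with neither, 6.06 with CTCF alone, 6.04 with H3K27ac alone and 6.08 with both. The peaks with neither lay a median of 151 kb from the nearest H3K27ac summit, against 25.2 kb for all Trim33 peaks of that class. An H3K27ac summit lay within 10 kb of 52 of the 173 (30.1%), against 37.3% of all Trim33 peaks of that class. More than 100 kb from one were 100 of them (57.8%), against 25.7% of all of that class. Desert Trim33 peaks with CTCF alone were also far from H3K27ac, with a median of 107 kb and 53.4% beyond 100 kb. The share with neither changed with distance. It was 10.8% within 1 kb of a gene, 40.9% at 50 to 100 kb, 51.7% at 100 to 200 kb and 63.7% at 200 to 500 kb, where 124 Trim33 peaks were counted.

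**Figure D3:**
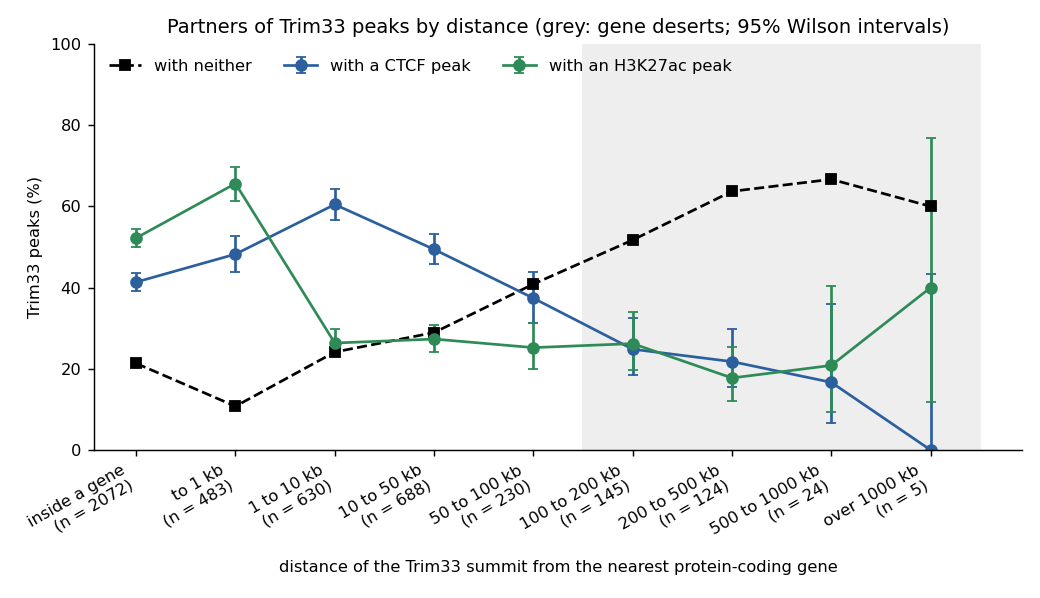
Percent of Trim33 peaks that overlap a CTCF peak (blue), an H3K27ac peak (green) or neither (black, dashed), by the distance of the Trim33 summit from the nearest protein-coding gene; bars are 95% Wilson intervals and grey marks deserts. The share with neither stands at 10.8% within 1 kb of a gene and 63.7% at 200 to 500 kb, and the last bin holds 5 peaks.

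Among the 10 highest Trim33 desert peaks, 6 overlapped neither list, 3 an H3K27ac peak and 1 a CTCF peak. The highest (chr4:3402847-3403334, fold 14.5) lay 146 kb from Tmem68, which encodes a membrane protein, over an H3K27ac peak of fold 7.58. Peaks of fold 11.3 with no partner lay 680 kb from Klhl29 on the side of Apob, which encodes the main protein of low-density lipoprotein (chr12:6055112-6055470), and 335 kb from Sall3, a zinc finger transcription factor (chr18:81321959-81322407). A further peak of fold 10.0 with no partner lay 157.5 kb from Ddhd1 on the side of Bmp4, a TGF-β family ligand (chr14:45815522-45815832). It shared no bp with an H3K27ac peak, but an H3K27ac summit lay beside it, 157.1 kb from Ddhd1. The peak of fold 10.0 between Aebp2 and Pde3a, a phosphodiesterase, also had no partner (chr6:140816309-140816957). Another, of fold 9.67, lay 118 kb from Gm11677 in the desert whose other end is Sox9, a transcription factor of cartilage and gonad development (chr11:111843760-111844575). The one with CTCF (chr13:39440847-39441312, fold 10.0) stood between Slc35b3 and Ofcc1, over a CTCF peak of fold 19.1. The Trim33 peak farthest from any gene lay 1267 kb from Flrt2, an adhesion protein of the FLRT family, with a fold of 7.23.

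The 5 highest Trim33 peaks with CTCF alone lay over CTCF peaks of fold 19.1 to 51.7. The one 147 kb from Ppp6c, a protein phosphatase subunit, and opposite Lrp1b, a lipoprotein receptor relative, had a fold of 9.24 over the highest CTCF desert peak, of fold 51.7 (chr2:39373064-39373587). The one between Gm6569 and Adgrb1, an adhesion receptor, had a fold of 8.94 over a CTCF peak of 21.6. Peaks beside Irx1, a homeobox gene, and near Pkdcc, a secreted kinase, had Trim33 folds of 8.67 and 8.17 over CTCF folds of 23.5 and 19.5. With H3K27ac alone, the peak between Slc1a3, a glutamate transporter, and Ranbp3l had a fold of 9.64 over an H3K27ac peak of 14.2, and one 308 kb from Dab2, an endocytic adaptor, had 9.24 over 9.41. The peak 508 kb from Cox7c, towards Edil3, an extracellular matrix protein, had 8.84 over 5.83. Of the 9 peaks with both, 2 lay between Sox2, a transcription factor of pluripotent and neural cells, and Atp11b, a lipid flippase, at folds of 5.70 and 5. The tallest of the 9 lay 125 kb from Gm4832 towards Foxn2, a forkhead factor, with a Trim33 fold of 8.33, a CTCF fold of 22.0 and an H3K27ac fold of 7.01.

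Desert CTCF and H3K27ac peaks with a Trim33 peak were taller than those without. The median CTCF fold was 21.2 with Trim33 and 9.88 without it, and the median H3K27ac fold was 8.09 and 6.21. Over all peaks on chromosomes 1 to 19 the medians were 25.6 and 9.19 for CTCF and 10.6 and 6.64 for H3K27ac. The difference was thus not particular to deserts. With CTCF peaks sorted into deciles of the whole list by fold, Trim33 met 24 of 183 desert peaks in the top decile (13.1%, 8.97 to 18.8%), against 20.8% of all CTCF peaks of that decile. In the 6 lowest deciles it met at most 2 desert peaks each, or 0 to 0.521%. Of all CTCF peaks in these deciles it met 0.543 to 1.28%, so low shares there were not particular to deserts. With H3K27ac peaks in quintiles, the desert share with Trim33 went from 2.67% in the lowest to 23.2% in the highest (16 of 69, 14.8 to 34.4%), where all H3K27ac peaks stood at 1.90% and 15.8%. The desert share was the higher one in each of the 5 quintiles. Its interval held the value of the whole list in all 5.

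**Figure D4:**
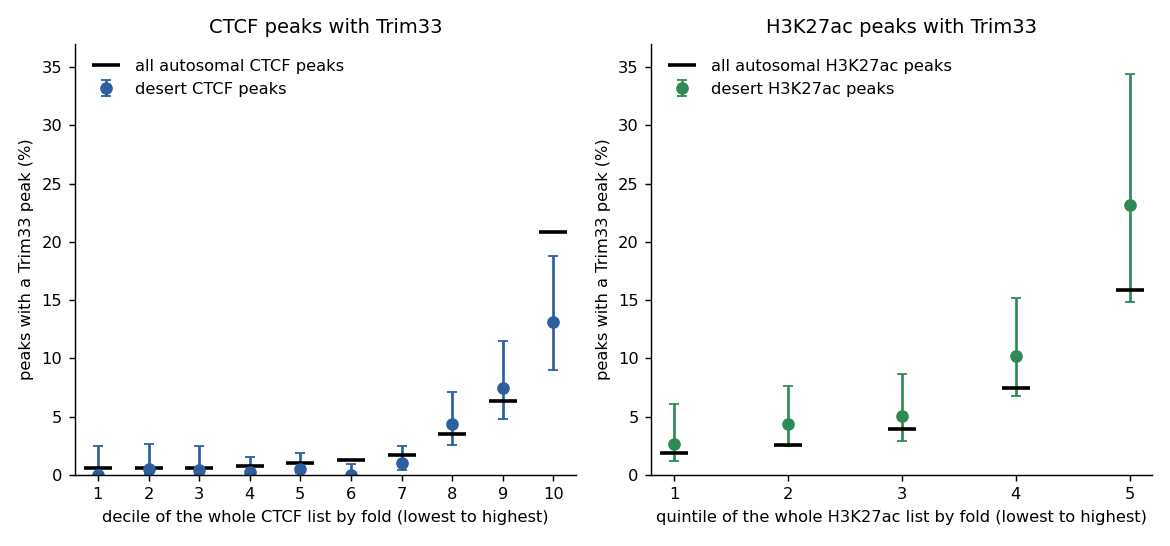
Percent of desert CTCF peaks (left, by decile of the whole list) and desert H3K27ac peaks (right, by quintile) that overlap a Trim33 peak, with 95% Wilson intervals, beside the same percent of all peaks on chromosomes 1 to 19 (black dashes). In the top group the desert share is 13.1% against 20.8% for CTCF and 23.2% against 15.8% for H3K27ac.

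The highest CTCF desert peaks after that near Ppp6c had folds of 44.4 near Npvf, a neuropeptide precursor, 38.2 between Habp2 and Tcf7l2, a transcription factor of Wnt signalling, and 38.1 near Pcmtd1. Of the 10 highest, 3 overlapped Trim33 and 1 overlapped H3K27ac. The farthest CTCF desert peak (fold 8.36) stood 2188 kb from Pik3c3, a lipid kinase. The 10 highest H3K27ac desert peaks had folds of 14.2 to 17.0, and 4 of them overlapped Trim33. The first (chr5:111629728-111634029) was 4302 bp wide, lay 175 kb from Mn1, a transcriptional co-regulator, and held a Trim33 peak of fold 5. Another lay 109 kb from Dlx2, a homeobox gene, with a fold of 15.6 over a Trim33 peak of 6.43, and one lay 199 kb from Sall1, a zinc finger repressor, with a fold of 15.4 and no Trim33 peak. The farthest H3K27ac desert peak lay 1726 kb from Slc39a10, a zinc transporter, with a fold of 7.81.

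Of the 1413 desert intervals, 866 held a CTCF peak (61.3%, 58.7 to 63.8%), 293 an H3K27ac peak (20.7%, 18.7 to 22.9%) and 216 a Trim33 peak (15.3%, 13.5 to 17.3%). CTCF alone was present in 538 intervals, which make up 44.8% of the desert length, and 119 intervals held all 3. No peak lay in 495, which were short, with a median of 68.6 kb, and made up 11.2% of the length. The lists were spread differently. Neighbouring desert peaks of 1 interval lay a median of 1.30 kb apart for H3K27ac, 34.4 kb for CTCF and 77.2 kb for Trim33. The 10 intervals with most H3K27ac peaks held 18.6% of the H3K27ac desert peaks, while the corresponding shares were 5.88% for CTCF and 11.7% for Trim33. Neither measure was adjusted for list size, at 951 H3K27ac, 2925 CTCF and 298 Trim33 desert peaks. Neighbouring H3K27ac peaks were counted apart here, and joining those within 1 kb left 569 in deserts.

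The interval with most H3K27ac peaks lay between Opa1, a mitochondrial fusion GTPase, and Hes1, a transcriptional repressor induced by Notch. It held 36 in 202 kb, with folds from 3.16 to 15.6 and a median of 7.61, 119 to 295 kb from Hes1, together covering 24.5 kb. Its Trim33 peak (fold 6.60) overlapped H3K27ac, 55 bp from an end of the lncRNA Gm32740. Next came the interval from Prl5a1, a prolactin family gene, to Sox4, a transcription factor of progenitor cells, with 31 in 597 kb and no Trim33 peak. The interval from Cyria to Mycn, a MYC family transcription factor, held 20 in 355 kb. From Sox2 to Atp11b there were 18, with folds of 4.49 to 10.5, and both Trim33 peaks there overlapped CTCF and H3K27ac. The intervals of Zfp608 and Gramd3 and of Slitrk5, a neuronal surface protein, and Gpc5, a glypican, held 13 each.

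**Figure D5:**
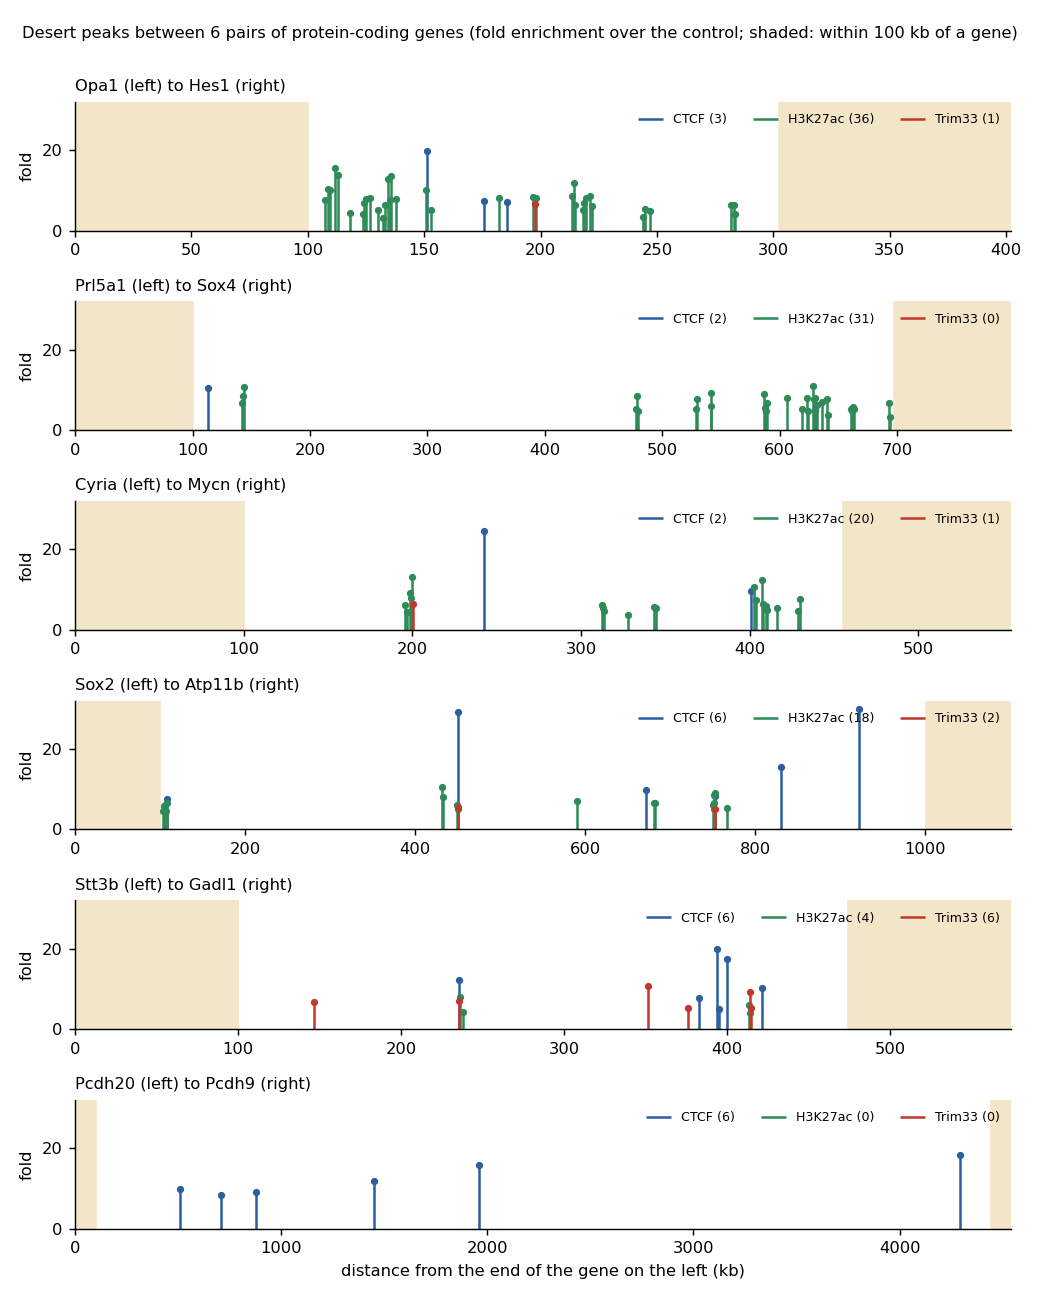
Desert peaks between 6 pairs of protein-coding genes, placed by distance (kb) from the end of the gene on the left, with height as the authors' fold enrichment and shading within 100 kb of a gene; counts per list stand in each key. The Opa1 to Hes1 interval holds 36 H3K27ac peaks, that from Stt3b to Gadl1 holds 6 Trim33 peaks, and that from Pcdh20 to Pcdh9 only 6 CTCF peaks.

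Of the 298 Trim33 desert peaks, 155 stood alone in their interval and 143 (48.0%) shared it with another Trim33 peak, in 61 of the 216 intervals. The interval from Stt3b, a catalytic subunit of oligosaccharyltransferase, to Gadl1, an amino acid decarboxylase, held 6, with folds of 5.18 to 10.8. One of these overlapped CTCF, 2 overlapped H3K27ac and 3 neither. The interval from Eipr1 to Myt1l, a neuronal zinc finger factor, held 5 with folds of 4.50 to 7.23, of which 2 overlapped CTCF and 1 H3K27ac. A further 14 intervals held 3 each. Among these were Haao to Zfp36l2, an RNA decay factor, Foxl1, a forkhead factor, to 1700018B08Rik, and Ednra, an endothelin receptor, to Ttc29, the densest of the tied intervals. Each of these also held 7 to 9 H3K27ac peaks. Between Irx3 and Irx5, homeobox genes, there were also 3 Trim33 and 7 H3K27ac peaks; this interval was chosen after its values were seen.

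H3K27ac desert peaks no more than 12.5 kb apart were joined into 462 clusters. Of these, 240 were single peaks and 30 held 5 or more, with 202 peaks in all (21.2%). Trim33 lay in 11 of the 30 (36.7%) and in 9 of the 240 single peaks (3.75%); larger clusters also cover more bases. The clusters with most peaks stood in the Opa1 to Hes1 interval, with 19 peaks over 45.8 kb, between Nebl and H2al2a, with 12 over 36.6 kb, and in the Prl5a1 to Sox4 interval, with 11 over 34.7 kb. None of these 3 overlapped Trim33. A cluster of 6 peaks between Camk1g and Plxna2, a semaphorin receptor, lay beside the Mir205 hairpin, with its peak of fold 8.40 centred 1181 bp away.

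The longest intervals between genes held few peaks. Pcdh20 to Pcdh9, protocadherins, spanned 4.34 Mb with 6 CTCF peaks and no other. The intervals of Celf4 and Pik3c3 (4.31 Mb), Olfm4 and Pcdh17 (4.22 Mb), Cntnap5b and Cdh20 (4.08 Mb) and Tenm3 and Aga (3.79 Mb) held 5 to 7 CTCF peaks each. At most 1 Trim33 peak lay in any of these 5, and only that of Celf4 and Pik3c3 held H3K27ac, with 3 peaks.

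Protein-coding genes that bound a desert were counted by list, beside the 2375 of 20558 genes (11.6%) that bound one at all. Of those 2375, 17.5% bound a desert with a Trim33 peak, 64.5% one with CTCF and 23.8% one with H3K27ac, and the median desert length beside them was 241 kb. Of 102 developmental transcription factors, 78 bounded a desert, 21 of them one with Trim33 (26.9%), 69 with CTCF (88.5%) and 34 with H3K27ac (43.6%), with a median length of 605 kb. Of 67 signalling genes 40 did, with 27.5%, 75% and 42.5% and a median of 421 kb. Of 74 adhesion and synaptic genes 68 did, with 29.4%, 85.3% and 35.3% and a median of 2343 kb. Of 45 Hox and Dlx genes 2 did, Dlx2 and Dlx6. These genes were listed for lying beside deserts, and longer deserts hold more peaks, so the shares are descriptions of the listed genes.

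The median member of the 3 longer lists had no Trim33 and no H3K27ac peak in its deserts. Its CTCF count was 4 for transcription factors, 2 for signalling genes and 5 for adhesion genes. Over all 2375 genes that bound a desert, the median was 1 for CTCF and 0 for Trim33 and H3K27ac. No peak of any list lay in the deserts of 7 of the 78 transcription factors, among them Hand2, Tfap2b, Zic4 and Bcl11b, of 8 of the 40 signalling genes, among them Inhba and Wnt5a, and of 8 of the 68 adhesion genes, among them Cntnap2. Over all 2375 genes that bound a desert, 31.7% had none. The members described next are the 6 of each list with most desert peaks, with ties taken in order of name. Sox4 had 31 H3K27ac, 2 CTCF and no Trim33 peaks in its deserts, Sox2 had 18, 10 and 2, and Mycn had 20, 2 and 1. Sall1 had 7, 13 and 1, whereas Sall3 had no H3K27ac peak beside 18 CTCF and 2 Trim33 peaks. Sox11, a neural transcription factor, had 9 H3K27ac and 7 CTCF peaks. Epha4 and Epha7, ephrin receptors, had 15 and 11 CTCF peaks but 0 and 2 H3K27ac peaks, and Bmp2, a TGF-β family ligand, had 10 CTCF peaks and neither of the others. Acvr2a, an activin receptor, had 10 CTCF and 1 H3K27ac peak. Bmp4 had 7 CTCF, 2 H3K27ac and 1 Trim33 peak, and Kit, the stem cell factor receptor, had 5 H3K27ac, 2 CTCF and 1 Trim33 peak. Among adhesion genes, Adgrl2, a latrophilin, had 10 H3K27ac, 12 CTCF and 2 Trim33 peaks over 3880 kb. Slitrk5 had 13, 8 and 1, Cntnap5a, a contactin-associated protein, 7, 11 and 2, and Cdh2, N-cadherin, 8, 7 and 3. Ctnna3, an α-catenin, had 3, 11 and 2, and Cdh8, a cadherin, had 2, 11 and 1.

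Deserts of protein-coding genes still hold RefSeq genes of other annotated types, whose bodies cover 12.7% of the desert length. Summits inside them made up 23.8% of Trim33 (71 of 298, 19.3 to 29.0%), 22.3% of CTCF (653 of 2925) and 29.5% of H3K27ac desert peaks (281 of 951, 26.7 to 32.5%). Within 1 kb of an end of such a gene lay 20 Trim33 (6.71%), 194 CTCF (6.63%) and 98 H3K27ac summits (10.3%). Of the 194 CTCF summits, 130 were counted at lncRNAs, 24 at pseudogenes and 21 at V segments of antigen receptors. The share of the desert length within 1 kb of such ends was not computed, so these shares have no background beside them. Besides the promoters and Mir300 shown above, Trim33 summits near an end included Gm35502 in the desert of Dll1, a Notch ligand, with a fold of 8.82, Gm32442 between Klhl29 and Apob with 7.23 and Gm34011 beside Zfp608 with 6.83. That at Gm36909 near Dlx2 (6.43) overlapped H3K27ac, as did those shared by Gm33782 and Gm40748 beside Btg1, an antiproliferative gene (5.63), and at Gm35229 beside Haao (4.65). That at Gm38512 in the Sox2 desert (5) overlapped both lists. Those at Gm33041 beside Gadd45g, a stress response gene (6.33), and Gm32958 (5.67) overlapped CTCF. Others lay at Gm5723 (6.03), D330037F02Rik (5.18), Gm19206 (5), Gm32123 (4.94) and Gm42125 (4.86), and none of these overlapped CTCF or H3K27ac.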

How the data were processed

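Peaks of 3 libraries were deposited by the authors as 3 lists, each with coordinates in mm10. Per the submitters' processing notes, BWA 0.7.12, SICER 1.1 and MACS2 were among the tools; per the deposited summary, peaks were called with MACS 2.1.0 against the input and blacklisted peaks were removed. The deposited lists give a fold enrichment (a ratio), a −log10 p and a −log10 q per peak, used here only to describe and rank peaks within a list; the deposited score was not used. The authors' counts of tags and of peaks per chromosome were taken from their summary. Trim33 was called against 13643929 input tags and the others against 25729171. Fold, width and depth were not rescaled.

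Distances ran from the summit to the nearest of 20558 protein-coding genes in RefSeq GRCm38.p6, with coordinates counted from 1. Of the genes the table places on chromosomes 1 to 19, 333 (107 protein-coding) carry coordinates of a separate scaffold and were left out, which changed no membership. The first 3 Mb of each chromosome, an assembly gap with no peak, was left out of lengths. Overlap meant 1 shared bp. Shares have 95% Wilson intervals, which cover counting error only. With 1 library per antibody no test was made. The members and gene lists were chosen with earlier results of these data known. Genes named are those that bound the deserts of the 10 highest peaks per list, the 5 highest Trim33 peaks per class, the 5 longest intervals, the 5 with most H3K27ac or Trim33 peaks, the farthest peaks and the 6 members of each gene list with most desert peaks (2 for Hox and Dlx genes), and noncoding genes with an end no more than 1 kb from a Trim33 summit. Python 3.11.15, pandas 2.3.3, numpy 2.4.6, scipy 1.17.1 and matplotlib 3.10.9 were used. Distances and overlaps were checked on planted data against a direct count. The alternatives were a distance of 50 or 200 kb, all RefSeq genes, a −log10 q of 10, a −log10 p of 7 in all lists, 3 other overlap rules, joined H3K27ac peaks and inclusion of chromosome X. A further one, without chromosome ends and antigen receptor loci, was chosen after seeing the data. Sequences are from RefSeq; no genome sequence was used here. The text describes part of what the naming rule selects, and 1 Trim33 promoter window is not reported here.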

Additional observations from a re-analysis of the deposited data

How the results depend on the processing

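The counts follow the definition of a desert. At a distance of 50 kb there were 528 Trim33, 5250 CTCF and 1904 H3K27ac desert peaks in 382, 1463 and 526 intervals, and at 200 kb there were 153, 1383 and 361 in 115, 442 and 133 intervals. With all RefSeq genes in place of protein-coding ones, 38, 372 and 86 desert peaks remained in 35, 245 and 46 intervals. The share of Trim33 peaks with neither partner was 50.6% at 50 kb and 64.1% at 200 kb, and the share with CTCF was 29.0% at 50 kb and 15.8% with all genes. With 50% of the shorter peak covered or the summit inside the other peak, Trim33 met H3K27ac at 15.4% and 15.1% and neither at 64.8% and 65.1%, and H3K27ac met CTCF at 2.84% under the summit rule. With peaks within 1 kb, Trim33 met H3K27ac at 39.6% and neither at 42.3%, and H3K27ac met CTCF at 8.62%. A −log10 q of at least 10 left 42 Trim33 desert peaks in 40 intervals, 16.7% of them with CTCF, and median folds of 8.70, 10.6 and 6.90 for Trim33, CTCF and H3K27ac. The share of H3K27ac desert peaks with Trim33 was 4.52% with 50% covered, 2.52% under the summit rule and 19.2% within 1 kb. It was 1.75% at a −log10 q of at least 10 and 10.5% with all RefSeq genes. The share of the whole list was not recomputed under these settings. Joining H3K27ac peaks within 1 kb left 569. A −log10 p of at least 7 in all lists, chromosome X, and the alternative without chromosome ends and antigen receptor loci moved none of these results past its limit. Of 147 alternative values, 87 stayed within their limits, which were 1.5 times for a count and the 95% interval for a share or median. The cause of the others was not tested beyond what each definition itself changes. The Trim33 library held the fewest tags (13643929), with 0.72% of reads in peaks and a looser threshold; the part of each in the length of its list was not tested. No paired analysis was possible because no group has a replicate.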

Other observations

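Antigen receptor loci fell under the desert rule, since their V, D, J and C segments are not annotated as protein-coding genes. They held 56 CTCF desert peaks (1.91% of 2925), 2 Trim33 and 5 H3K27ac desert peaks. The loci of the T cell receptor α and δ chains held 21 CTCF peaks with folds up to 32.5, 10 of them within 1 kb of an end of a V segment. The immunoglobulin κ locus held 19, none at a V segment, and the immunoglobulin heavy chain locus 13, of which 11 lay at a V segment, with a median fold of 9.69. The T cell receptor β locus held 2, the immunoglobulin λ locus 1 and the T cell receptor γ locus none. Outside these loci the intervals with most CTCF desert peaks, chosen after their values were seen, were Sdk2 to Rpl38 with 21 in 401 kb, Sall3 to Galr1 with 18 and Matn1 to Ptpru with 18, and of these 3 none held H3K27ac.

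By chromosome, H3K27ac desert density ran from 0.79 peaks per Mb on chromosome 15 to 2.83 on chromosome 13, CTCF from 3.21 on chromosome 3 to 6.20 on chromosome 2, and Trim33 from 0.281 on chromosome 16 to 0.736 on chromosome 9.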
